A study of Mus musculus with 6 samples.

Results

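Ttn, Neb, Nebl, Nrap, Obsl1, Tcap, Mypn, Xirp1 and Xirp2 encode the very long proteins of the sarcomere, the Xin repeat proteins and some of their partners. They were taken by symbol from the deposited count table and make up 9 of its 55286 symbols. No cutoff on a measured value was applied to the list, but it was chosen with earlier results of these data known. All 9 passed the filter on low counts and are described here, Nebl at counts of 0 to 20 per library. The levels were measured by RNA sequencing in 3 groups of 2 libraries. The first is MEF (mouse embryonic fibroblasts, connective tissue cells grown from embryos), the second is Muscle, and the third is titled Direct reprogramming, with the cell type given as transdifferentiated. In the count table the libraries of the third group carry the name iMuscle, those of muscle Endomuscle and those of MEF TauMEF. What Tau refers to is not stated in the sources used here. Genotype, strain, age, the factor that drove the conversion, its duration, the cell of origin of the converted cells and the source of the muscle are not stated in the sources used here, nor is any agent or allele. The labels do not tie the replicates to distinct cultures or animals, so p-values measure only the spread between these libraries, which could be technical.

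The sarcomere is the contractile unit of striated muscle, bounded by Z-discs and centred on the M-band. Titin (Ttn) is a single protein that reaches from the Z-disc to the M-band and acts as a spring and a scaffold, and telethonin (Tcap) ties its N-terminal ends together at the Z-disc. Nebulin (Neb) runs along the actin thin filament in skeletal muscle, nebulette (Nebl) is its shorter relative best known from the heart, and N-RAP (Nrap) is a related protein of myofibril assembly and of the sites where myofibrils attach to the cell membrane. Obsl1 is a cytoskeletal adaptor that binds titin at the M-band and is also made outside muscle, and myopalladin (Mypn) links nebulin to alpha-actinin at the Z-disc. Xirp1 and Xirp2 carry the Xin repeats, which bind and stabilise actin, and sit at the ends of muscle fibres and at cell junctions of the heart.

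The 250 bases before the transcription start are shown for 5 of the genes, since all 5 rose over MEF while the converted cells differed from muscle in both directions among them, as described further on. The sequences are from RefSeq, build GRCm38.p6, whose table matched 6 of the 9 symbols (Ttn, Nebl with 4 starts, Nrap, Obsl1, Mypn and Xirp2). Each is written 5′ to 3′ on the gene's strand, and capitals mark matches to the motifs searched.
Ttn, chr2:76982548-76982797, minus strand: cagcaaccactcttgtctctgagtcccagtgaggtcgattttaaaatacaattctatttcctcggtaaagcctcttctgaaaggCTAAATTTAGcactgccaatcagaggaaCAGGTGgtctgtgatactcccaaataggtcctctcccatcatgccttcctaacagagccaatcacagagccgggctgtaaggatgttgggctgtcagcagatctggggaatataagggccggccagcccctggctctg
Nrap, chr19:56390039-56390288, minus strand: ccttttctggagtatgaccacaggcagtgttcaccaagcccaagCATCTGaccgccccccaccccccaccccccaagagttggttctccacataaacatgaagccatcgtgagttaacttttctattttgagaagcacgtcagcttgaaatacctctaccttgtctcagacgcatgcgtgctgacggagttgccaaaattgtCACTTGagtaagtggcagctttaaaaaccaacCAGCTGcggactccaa
Obsl1, chr1:75506453-75506702, minus strand: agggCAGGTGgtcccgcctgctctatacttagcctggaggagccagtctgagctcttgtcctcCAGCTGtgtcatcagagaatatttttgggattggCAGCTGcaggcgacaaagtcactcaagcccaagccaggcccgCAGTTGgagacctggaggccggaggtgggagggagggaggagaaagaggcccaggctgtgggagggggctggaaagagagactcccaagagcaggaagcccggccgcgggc
Mypn, chr10:63203953-63204202, minus strand: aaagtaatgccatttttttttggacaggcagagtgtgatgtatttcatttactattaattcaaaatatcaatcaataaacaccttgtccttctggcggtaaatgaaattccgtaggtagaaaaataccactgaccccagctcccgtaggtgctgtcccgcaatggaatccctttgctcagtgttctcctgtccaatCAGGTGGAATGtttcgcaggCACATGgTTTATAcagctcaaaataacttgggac
Xirp2, chr2:67445752-67446001, plus strand: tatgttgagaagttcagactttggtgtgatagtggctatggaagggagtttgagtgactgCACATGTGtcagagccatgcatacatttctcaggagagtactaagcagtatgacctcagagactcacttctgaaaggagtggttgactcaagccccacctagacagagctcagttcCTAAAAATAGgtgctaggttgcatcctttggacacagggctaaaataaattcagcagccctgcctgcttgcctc

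The motifs were searched on both strands. They were the E-box CANNTG, its forms CAGCTG and CAGGTG (each also a match to CANNTG), the M-CAT motif CATTCC, the TATA box TATAAA, the MEF2 site and the SRF CArG box, the last pair by name. E-boxes are bound by the myogenic factors, and MEF2 and SRF are further regulators of muscle genes. An E-box CANNTG was found for 6 of the 6 genes with an entry (for Nebl at starts 1 and 3 of its 4), and in 66.2% of all 32851 promoters of this length. A gene was counted if any of its starts matched, while the shares of all promoters count each start, so for Nebl they are not alike. The form CAGCTG was found in Nrap and Obsl1 (13% of all promoters). CAGGTG was found in Ttn, Mypn, Obsl1 and Nebl (17.2%). A MEF2 site, in 2.92% of all promoters, was matched by CTAAATTTAG in Ttn, 166 to 157 bases before the start, and by CTAAAAATAG in Xirp2, 74 to 65 bases before it. Mypn held both a TATA box on the opposite strand (12.4% of all promoters) and an M-CAT motif that overlaps its CAGGTG (12.6%, also in Nebl), and 1 Nebl promoter held a CArG box (1.47%). A match describes the letters in the window and no binding was measured.

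Total counts ranged from 16817033 to 24584951 per library, so that 3 counts, the upper limit that a count of 0 allows, lie between 0.122 and 0.178 CPM (counts relative to the library total, scaled by TMM in all values but these limits); the limits cover counting error only. The labels were checked with marker genes. The summed level of 10 skeletal muscle markers was 254 to 392 CPM in MEF, 48613 to 51980 CPM in muscle and 41153 to 53196 CPM in transdifferentiated cells. For 11 cardiac markers it was 20.3 to 27.2, 34.1 to 38.5 and 40.4 to 43.2 CPM, with Nppa, Myl7, Nkx2-5 and Hcn4 at 0 in both muscle libraries. Of the 11, Myh6 was at a mean of 0.110 CPM in MEF, 28.6 CPM in muscle and 26.2 CPM in transdifferentiated cells. Pln was at 0, 4.09 and 0.975 CPM. In muscle Nppb, Gata4 and Tbx5 went the other way, from 4.73, 7.45 and 9.56 CPM in MEF to 0.164, 2.87 and 0.0304 CPM. In transdifferentiated cells these were at 5.62, 3.95 and 1.78 CPM, so Nppb was not below its mean in MEF there. Fibroblast markers (10 genes) summed to 17346 to 26950 CPM in MEF, 6789 to 12530 CPM in muscle and 12490 to 15577 CPM in transdifferentiated cells. These sums are led by the collagens Col1a1 and Col1a2, and the median of the 10 genes was 442, 40.2 and 137 CPM. Not all of the 10 were lower in the converted cells. Col3a1 went from a mean of 1300 CPM (MEF) to 2647 CPM (converted), and Lum from 46.5 to 131 CPM. Dcn was nearly level at 413 and 409 CPM, and the rest of the 10 had lower means there. For 8 smooth muscle markers the sums were 10780 to 14810, 7015 to 8663 and 5968 to 8687 CPM. Their median was 251, 33.3 and 57.0 CPM in the same order of groups. Des, which is among the 8, had means of 159, 4231 and 4500 CPM, and Smtn of 127, 225 and 172 CPM. The others had lower means in muscle and transdifferentiated cells than in MEF. Macrophage markers (10 genes) stood at 776 to 899 CPM in transdifferentiated cells against 1.95 to 4.86 CPM in muscle, where Adgre1, Tyrobp and Ptprc were at 0, and 80.9 to 82.1 CPM in MEF. Endothelial markers (6 genes) lay at 5.12 to 9.78 CPM in transdifferentiated cells, 19.3 to 20.6 CPM in MEF and 0.122 to 1.83 CPM in muscle, where Tie1 and Emcn were at 0. The part of these other cell types in the results on the giant genes was not tested. In such bulk samples, fewer muscle cells and less RNA per muscle cell cannot be told apart.

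Against MEF, 8 of the 9 genes rose in muscle and the same 8 rose in transdifferentiated cells; Nebl passed the test in neither. A gene is called changed here at a Benjamini-Hochberg adjusted p under 0.05 in edgeR's quasi-likelihood test, adjusted over all 17400 genes tested. Of all genes tested, 35.6% were called in muscle against MEF, 17.3% higher and 18.3% lower. In transdifferentiated cells against MEF 27.3% were called, 15.9% higher and 11.3% lower. The libraries of muscle and MEF did not overlap for 8 of the 9 genes, all higher, beside 68.8% of all genes (34.5% higher, 34.3% lower). Those of transdifferentiated cells and MEF did not overlap for the same 8, all higher, beside 60.6% of all genes (32.7% higher, 27.9% lower). Nebl was higher without overlap there too but is not counted. It passed the filter on low counts only through the transdifferentiated libraries, and was not tested when muscle and MEF were fitted alone. Nrap, Tcap, Mypn, Xirp1 and Xirp2 had 0 to 9 counts in each MEF library. They passed the filter through the muscle and transdifferentiated libraries, where they are high. The direction of their calls and of their lack of overlap against MEF was thus largely fixed by the filter. These 2 comparisons share the MEF libraries. Without Muscle replicate 2, 3758 of all genes were called in muscle against MEF in place of 6198, and the 8 genes were still called. The median log2 fold change of the 9 genes was 9.64 in muscle and 8.45 in transdifferentiated cells, beside 0.00 and 0.07 over all genes. Together the 9 genes took 0.00496% and 0.00605% of the counts of the MEF libraries, 1.08% and 1.39% of the muscle libraries, and 0.661% and 0.670% of the transdifferentiated ones. Ttn and Neb alone held 82.7% and 88.0% of the 9 genes' counts in muscle and 80.4% and 74.7% in transdifferentiated cells.

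**Figure D1:**
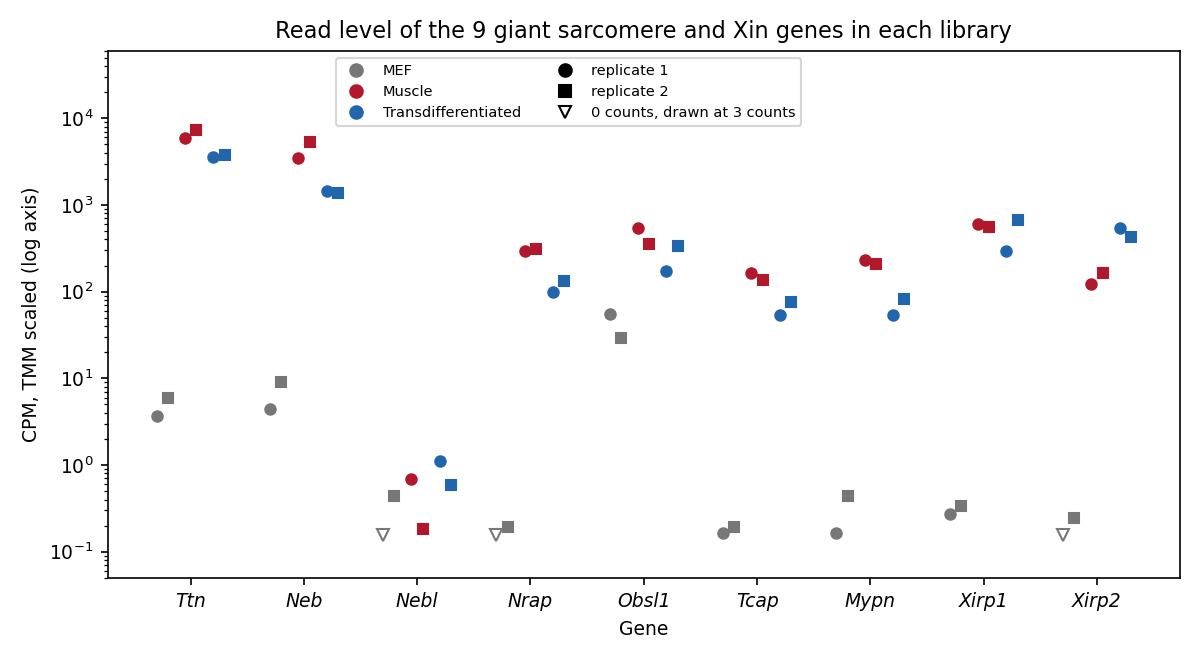
Level of each of the 9 genes in each library, in TMM-scaled CPM on a log axis; circles are replicate 1, squares replicate 2, and open triangles are libraries with 0 counts, drawn at the level of 3 counts. Except for Nebl, the muscle and transdifferentiated libraries lie above both MEF libraries for every gene, and both transdifferentiated libraries of Xirp2 (546 and 426 CPM) lie above its muscle libraries (123 and 164 CPM).

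Titin and its cap protein showed the same order of groups. Ttn (chr2:76703980-76982547, minus strand, 345 merged exons, 116.8 kb of exon sequence in GENCODE M21 on mm10) stood at 3.69 and 5.97 CPM in MEF, at 5947 and 7301 CPM in muscle, and at 3577 and 3726 CPM in transdifferentiated cells. The groups did not overlap, and the 2 transdifferentiated libraries lay close together below both of muscle. The log2 fold change over MEF was 10.42 ± 0.41 (SE) in muscle (adjusted p = 9.64e-07) and 9.56 ± 0.40 in transdifferentiated cells (adjusted p = 1.57e-06). Tcap (chr11:98383811-98384953, plus strand, 0.95 kb of exon), the shortest of the genes, was at 0.165 and 0.194 CPM in MEF, 162 and 135 CPM in muscle, and 54.4 and 75.9 CPM in transdifferentiated cells. All groups were again apart, but MEF held only 7 counts of Tcap in all. The ratio of muscle to MEF was 787 and of transdifferentiated cells to MEF 363, with exact Poisson intervals at 95% of 382 to 1958 and 176 to 904 that cover counting error only. The fitted log2 fold changes of Tcap were 9.64 ± 0.43 (adjusted p = 1.43e-06) and 8.45 ± 0.42 (adjusted p = 3.27e-06).

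Of the nebulin family, the skeletal form and N-RAP were abundant in muscle, and nebulette was near the limit of detection in all groups. Neb (chr2:52136647-52378474, minus strand, 26.58 kb of exon) was at 4.41 and 9.08 CPM in MEF, 3436 and 5338 CPM in muscle, and 1442 and 1384 CPM in transdifferentiated cells. Its muscle libraries differed by more than its transdifferentiated ones, and the groups did not overlap. It rose over MEF by a log2 fold change of 9.34 ± 0.50 in muscle (adjusted p = 3.60e-06) and 7.71 ± 0.47 in transdifferentiated cells (adjusted p = 8.65e-06). Nrap (chr19:56320035-56390037, minus strand, 5.51 kb of exon) had 0 and 4 counts in MEF, which is 0 and 0.194 CPM, then 294 and 308 CPM in muscle and 98.8 and 131 CPM in transdifferentiated cells. Against those 4 counts the ratio was 2733 in muscle (Poisson interval 1067 to 10033) and 1120 in transdifferentiated cells (437 to 4111), with adjusted p = 3.47e-06 and 7.39e-06. Exons of Nrap overlap genes on the other strand over 6.83% of their length. The counting's strand setting is not stated in the sources used here, so the reads of Nrap that this overlap affected cannot be told. The overlapping gene with most counts, Habp2, had 0 to 44 per library beside 1757 to 6902 of Nrap in muscle and transdifferentiated cells. Those counts do not show how many reads of the shared exons were left out.

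Nebl (chr2:17343909-17731464, minus strand, 15.23 kb of exon) had 0 and 9 counts in the MEF libraries, 16 and 3 in those of muscle, and 20 and 12 in the transdifferentiated ones. In CPM these are 0 and 0.437, 0.682 and 0.183, and 1.12 and 0.581, so muscle overlapped both other groups. The ratio to MEF was 1.93 in muscle (Poisson interval 0.832 to 4.84) and 3.56 in transdifferentiated cells (1.66 to 8.49), and neither passed edgeR's test over all genes (adjusted p = 0.566 and 0.263). Without MEF replicate 2 the latter was called (adjusted p = 0.0400, between 0.0400 and 0.623 over 13 alternatives), against a single MEF library with 0 counts. Per kilobase, Neb exceeded Nebl in every library, with Nebl at 3.46e-04 and 5.97e-05 of Neb in the muscle libraries and at 0.00136 and 7.33e-04 in the transdifferentiated ones. These ratios did not overlap, but they rest on the few Nebl counts given above. No group is labelled as heart, and the summed heart markers were as low as given above, so no group tests nebulette in cardiac cells.

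Obsl1 and Mypn differed in what they showed outside muscle. Obsl1 (chr1:75479310-75506452, minus strand, 8.47 kb of exon) was at 54.6 and 28.8 CPM in MEF, where it had the highest level per kilobase of the 9 genes. It stood at 541 and 358 CPM in muscle and 174 and 337 CPM in transdifferentiated cells, where the second library nearly reached the lower muscle library. It rose over MEF by 3.43 ± 0.45 on the log2 scale in muscle (adjusted p = 4.85e-04) and by 2.62 ± 0.43 in transdifferentiated cells (adjusted p = 0.00246), the smallest rises among the 8 called genes. Mypn (chr10:63115795-63203952, minus strand, 5.82 kb of exon) was at 0.165 and 0.437 CPM in MEF, 233 and 208 CPM in muscle, and 53.8 and 83.0 CPM in transdifferentiated cells. All 3 groups were apart, with transdifferentiated cells between the others. Its log2 fold changes over MEF were 9.46 ± 0.49 (adjusted p = 3.08e-06) and 7.77 ± 0.47 (adjusted p = 8.18e-06).

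The Xin genes were both almost absent in MEF but did not share their order in the other groups. Xirp1 (chr9:120013755-120023598, minus strand, 5.84 kb of exon) was at 0.275 and 0.340 CPM in MEF, 607 and 555 CPM in muscle, and 297 and 675 CPM in transdifferentiated cells. The 2 transdifferentiated libraries lay on either side of both muscle libraries and differed from each other by 1.18 on the log2 scale, beside a median size of 0.46 over all genes in that group. Xirp1 rose over MEF by 10.85 ± 0.58 in muscle (adjusted p = 3.49e-06) and by 10.59 ± 0.58 in transdifferentiated cells (adjusted p = 5.08e-06). Xirp2 (chr2:67446002-67526614, plus strand, 11.98 kb of exon) had 0 and 5 counts in MEF (0 and 0.243 CPM), 123 and 164 CPM in muscle, and 546 and 426 CPM in transdifferentiated cells. Both transdifferentiated libraries were above both muscle libraries. Against those 5 MEF counts the ratio was 1021 in muscle (Poisson interval 437 to 3145) and 3713 in transdifferentiated cells (1591 to 11437), with adjusted p = 7.39e-06 and 5.27e-06.

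Set directly against muscle, transdifferentiated cells had lower Neb, Nrap, Tcap and Mypn and higher Xirp2. Mypn was 3.23-fold lower (log2 fold change -1.69 ± 0.32, adjusted p = 0.0116), Neb 3.10-fold lower (-1.63 ± 0.36, adjusted p = 0.0214), Nrap 2.62-fold lower (-1.39 ± 0.35, adjusted p = 0.0392) and Tcap 2.28-fold lower (-1.19 ± 0.27, adjusted p = 0.0232). Xirp2 was 3.39-fold higher (1.76 ± 0.38, adjusted p = 0.0207). Ttn (-0.86 ± 0.27, adjusted p = 0.0935), Obsl1 (-0.81 ± 0.41, adjusted p = 0.306), Xirp1 (-0.26 ± 0.36, adjusted p = 0.799) and Nebl (0.91 ± 1.05, adjusted p = 0.745) did not pass the test. Thus 5 of the 9 genes were called, 4 lower and 1 higher, where 10% of all genes tested were called, 2.46% lower and 7.58% higher. Libraries of the 2 groups did not overlap for 7 of the 9 genes, 6 lower (with Ttn and Obsl1) and 1 higher, beside 48.9% of all genes, 22.5% lower and 26.4% higher.

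These 5 calls rest on 2 libraries a group and changed when either muscle library was left out. Without Muscle replicate 2, edgeR called 0 of the 9 genes (5 had an unadjusted p under 0.05; no other tool was run without it), while 729 of all genes were called in place of 1747. Without Muscle replicate 1 it called Neb alone (908 of all genes). Without transdifferentiated replicate 1, Nrap and Tcap were not called, and without transdifferentiated replicate 2 Neb was not (adjusted p = 0.0515). Over 14 alternative settings the adjusted p ranged from 3.34e-06 to 0.0757 for Mypn (called in 12), from 5.72e-07 to 0.177 for Xirp2 (12), from 1.00e-06 to 0.157 for Neb (11), from 0.00315 to 0.179 for Tcap (10) and from 1.82e-04 to 0.199 for Nrap (9). All 5 kept their sign in those settings. Ttn, not called above, was called lower in 5 of the 14, among them DESeq2 (adjusted p = 0.0457) and the fits without MEF replicate 1 (0.0332) or MEF replicate 2 (0.0388), with a range of 0.0331 to 0.449. The sign of Xirp1 turned to 0.22 without transdifferentiated replicate 1.

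**Figure D2:**
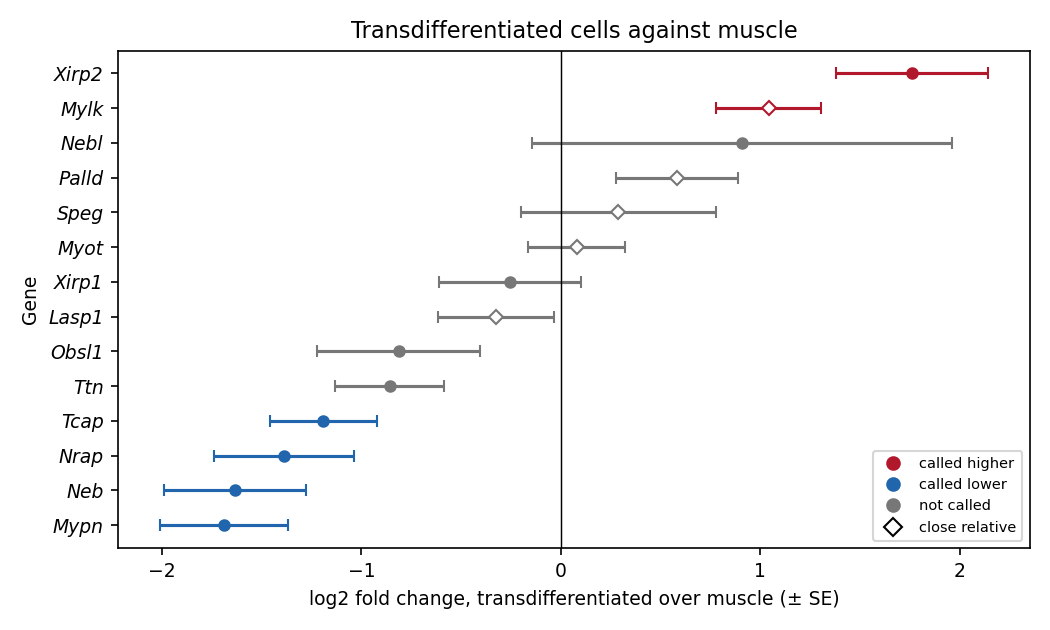
Log2 fold change of transdifferentiated cells over muscle with its standard error, for the 9 genes (filled circles) and 5 close relatives (open diamonds), coloured by call in edgeR's test over all genes. Mypn, Neb, Nrap and Tcap lie between -1.69 and -1.19 and were called lower, and Xirp2 at 1.76 was called higher; the relative Mylk at 1.04 was the other called gene.

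Read counts grow with transcript length, so genes were compared with each other as CPM per kilobase of merged exons. On that scale the order in muscle was Neb (165), Tcap (157), Xirp1 (99.5), Ttn (56.7), Nrap (54.7), Obsl1 (53.1), Mypn (37.9), Xirp2 (12.0) and Nebl (0.0284), as means of 2 libraries. Neb and Tcap overlapped between libraries, as did Ttn with Nrap and Nrap with Obsl1; the other neighbours did not. For transdifferentiated cells the order was Xirp1 (83.3), Tcap (68.7), Neb (53.2), Xirp2 (40.6), Ttn (31.3), Obsl1 (30.2), Nrap (20.9), Mypn (11.7) and Nebl (0.0560), where Xirp1 overlapped with Tcap, Ttn with Obsl1 and Obsl1 with Nrap. By these means Neb stood in the first place in muscle and the third in transdifferentiated cells. Xirp2 stood in the eighth and the fourth. Single libraries departed from this order. In replicate 1 Neb lay below Tcap in muscle (129 against 171) and above Xirp1 in transdifferentiated cells (54.3 against 50.9). In transdifferentiated replicate 2 Obsl1 lay above Xirp2 (39.8 against 35.6). With the longest transcript as the length, Obsl1 came to 79.1 in muscle, above Ttn at 62.0, and to 45.01 in transdifferentiated cells, above Xirp2. In MEF, Obsl1 led at 4.93 CPM per kb and the other 8 genes lay at 0.254 or less. Ttn was the gene with the 9th and 12th highest CPM in the muscle libraries but ranked 836 and 1057 per kilobase, among 53250 genes with a length.

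**Figure D3:**
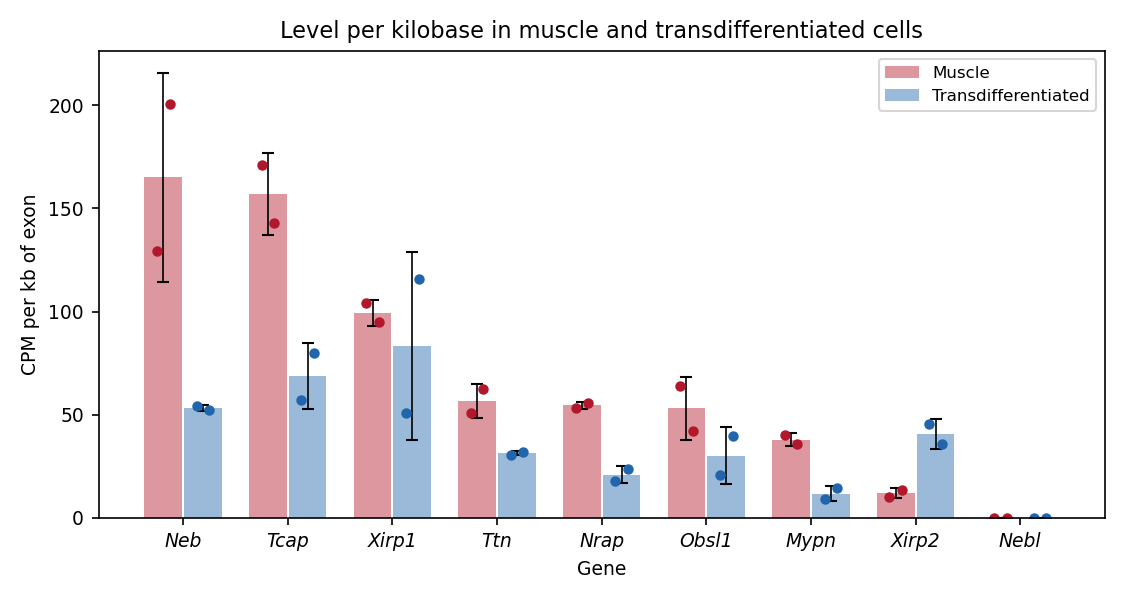
Level per kilobase of exon (CPM per kb, linear axis from 0) of the 9 genes in muscle and transdifferentiated cells; bars are means of 2 libraries, points the libraries and whiskers the SD. The bars for Neb fall from 165 to 53.2 and those for Xirp2 go from 12.0 to 40.6, while the libraries of Xirp1 in transdifferentiated cells span 50.9 to 115.6.

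Ratios within a library compare partner genes without scaling between libraries. Neb per kilobase was 2.54 and 3.21 times Ttn in the muscle libraries and 1.77 and 1.63 times in the transdifferentiated ones, with no overlap. Xirp2 stood at 0.0991 and 0.144 of Xirp1 in muscle and at 0.896 and 0.308 in transdifferentiated cells, again apart, although the 2 latter values differ widely. Mypn was 0.421 and 0.547 of its relative Palld (palladin, an actin-binding protein of many cell types) in muscle, and lower at 0.0967 and 0.0982 in transdifferentiated cells. The ratios of Tcap to Ttn and of Nrap to Neb overlapped between the groups. Tcap was 3.36 and 2.29 times Ttn in muscle and 1.87 and 2.51 times in transdifferentiated cells, and Nrap was 0.413 and 0.278 against 0.331 and 0.458 of Neb. With 2 libraries a group, an exact two-sided permutation test cannot give a p under 0.333, so the ratios are a description, and the pair with Palld was added after seeing the data.

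**Figure D4:**
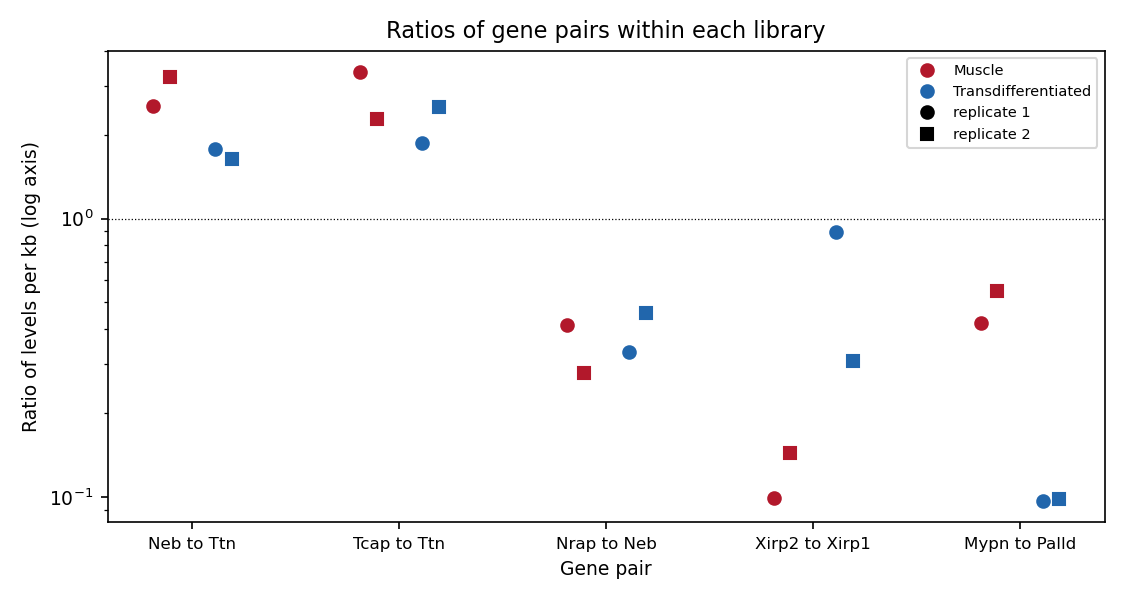
Ratio of the levels per kilobase of gene pairs within each library, on a log axis with a dotted line at 1; circles are replicate 1 and squares replicate 2. Muscle and transdifferentiated libraries do not overlap for Neb to Ttn, Xirp2 to Xirp1 and Mypn to Palld, and overlap for Tcap to Ttn and Nrap to Neb.

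Close relatives did not all follow the 9 genes. Myot (myotilin, a Z-disc relative of myopalladin) had 3 counts over both MEF libraries and reached a mean of 180 CPM in muscle and 190 CPM in transdifferentiated cells. The ratio of Myot to MEF was 2222 (Poisson interval 760 to 10777) in muscle and 2429 (831 to 11780) in transdifferentiated cells. Speg, a kinase of striated muscle, and Palld passed the test in none of the 3 comparisons, at means of 24.5, 49.9 and 60.9 CPM and of 749, 827 and 1239 CPM in MEF, muscle and transdifferentiated cells. Lasp1, a small nebulin relative at sites of cell adhesion, fell against MEF, with log2 fold changes of -2.86 in muscle (adjusted p = 1.66e-04) and -3.19 in transdifferentiated cells (adjusted p = 1.37e-04). Mylk, the myosin light chain kinase of smooth muscle, fell as well (-2.86, adjusted p = 8.20e-05, and -1.82, adjusted p = 0.00123) and was higher in transdifferentiated cells than in muscle (1.04 ± 0.26, adjusted p = 0.0383).

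Genes for partners and relatives of titin, nebulin and the Xin proteins were counted in lists chosen with earlier results of these data known. The 5 lists hold 73 genes in all, named partner genes here, and 5 of the 6 relatives, Palld, Myot, Lasp1 and Speg among them, stand in another list as well. Mylk stands only among the relatives and is 1 of the 2 genes called higher than in muscle. Of the 73, against MEF 52 rose and 7 fell in muscle and 51 rose and 6 fell in the converted cells, and 2 were higher and 6 lower in transdifferentiated cells than in muscle. Over all genes tested, 17.3% were called higher and 18.3% lower in muscle, 15.9% and 11.3% in the converted cells, and 7.58% higher and 2.46% lower in the last comparison. The 8 partner genes called there, of 73, are a share near the 10% of all genes called in either direction. Of the 8, 6 were lower, while among all genes more were called higher (7.58%) than lower (2.46%). The median log2 fold change of transdifferentiated cells over muscle was -0.21 over the 73 genes, -0.86 over the 9 giant and Xin genes and 0.03 over all genes. The count of 8 called partner genes moved with the libraries used, to 3 without Muscle replicate 1, 2 without Muscle replicate 2, 5 without transdifferentiated replicate 1, 14 without MEF replicate 1 and 13 without MEF replicate 2.

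Among 22 Z-disc and titin spring partners, 16 rose and 2 fell in muscle, and 17 rose and 2 fell in the converted cells, both against MEF. Actn2, the alpha-actinin that anchors titin, rose from a mean of 2.12 CPM in MEF to 1923 CPM in muscle (adjusted p = 9.44e-07) and 1532 CPM in transdifferentiated cells (adjusted p = 1.41e-06), and the 2 that fell in both were Lasp1 and Fhl2, a LIM protein that binds titin. Between transdifferentiated cells and muscle, Fhl1 was higher (3043 ± 454 against 734 ± 48.9 CPM, SD, n = 2, adjusted p = 0.00195) and Ankrd1, a stress-responsive titin-binding protein, was lower (338 ± 66.9 against 717 ± 59.5 CPM, adjusted p = 0.0342). The other 20 did not pass the test.

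Of 16 M-band and A-band titin partners, 14 rose and 1 (Sqstm1, an autophagy receptor) fell in muscle, and 13 rose in transdifferentiated cells, against MEF. Trim55, a ubiquitin ligase at the titin kinase region, reached 190 CPM in muscle (adjusted p = 9.44e-07) and 138 CPM in transdifferentiated cells (adjusted p = 1.41e-06) from 0.204 CPM in MEF. Capn3, the muscle protease held by titin, was lower in transdifferentiated cells than in muscle, at 28.8 ± 0.90 against 153 ± 5.96 CPM (SD, n = 2, log2 fold change -2.41 ± 0.26, adjusted p = 6.95e-04), and the myosin-binding Mybpc2 was lower as well (-1.75 ± 0.30, adjusted p = 0.00678). The remaining 14 passed in neither direction.

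The 20 thin filament and nebulin partners rose in 18 cases in muscle and in 18 in transdifferentiated cells. Actc1, the cardiac and fetal skeletal actin, went from 19.98 CPM in MEF to 12669 CPM in muscle (adjusted p = 9.44e-07) and 12821 CPM in transdifferentiated cells (adjusted p = 1.41e-06); reads of near-identical actins may be split between genes in the counting. The tropomyosin Tpm3 fell in transdifferentiated cells, to 144 CPM from 284 CPM in MEF and was lower than in muscle (283 CPM; adjusted p = 0.0167 against MEF and 0.0355 against muscle), and the slow troponin Tnni1 was lower than in muscle too (adjusted p = 0.0376). Thus 2 of the 20 were lower than in muscle and 18 passed in neither direction.

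At the attachment sites where Xin and N-RAP proteins sit, 4 of 14 genes rose and 3 fell in muscle relative to MEF, and 3 rose and 2 fell in the converted cells. Over all genes 17.3% were called higher and 18.3% lower in muscle, and 15.9% and 11.3% in the converted cells, so most of these counts lie near the shares of all genes. The list's median log2 fold change was -0.19 and -0.56, beside 0.00 and 0.07 over all genes. Itga7, the laminin receptor of muscle fibres, rose from 16.7 CPM to 1133 CPM in muscle (adjusted p = 1.52e-05) and 495 CPM in transdifferentiated cells (adjusted p = 5.26e-05). Vinculin (Vcl) and Parva, general adhesion proteins, fell in both, and Ctnnb1 (beta-catenin) fell in muscle. Cdh2 (N-cadherin) was lower in transdifferentiated cells than in muscle (171 ± 29.1 against 339 ± 72.7 CPM, SD, n = 2, adjusted p = 0.0474), and the other 13 did not pass the test.

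**Figure D5:**
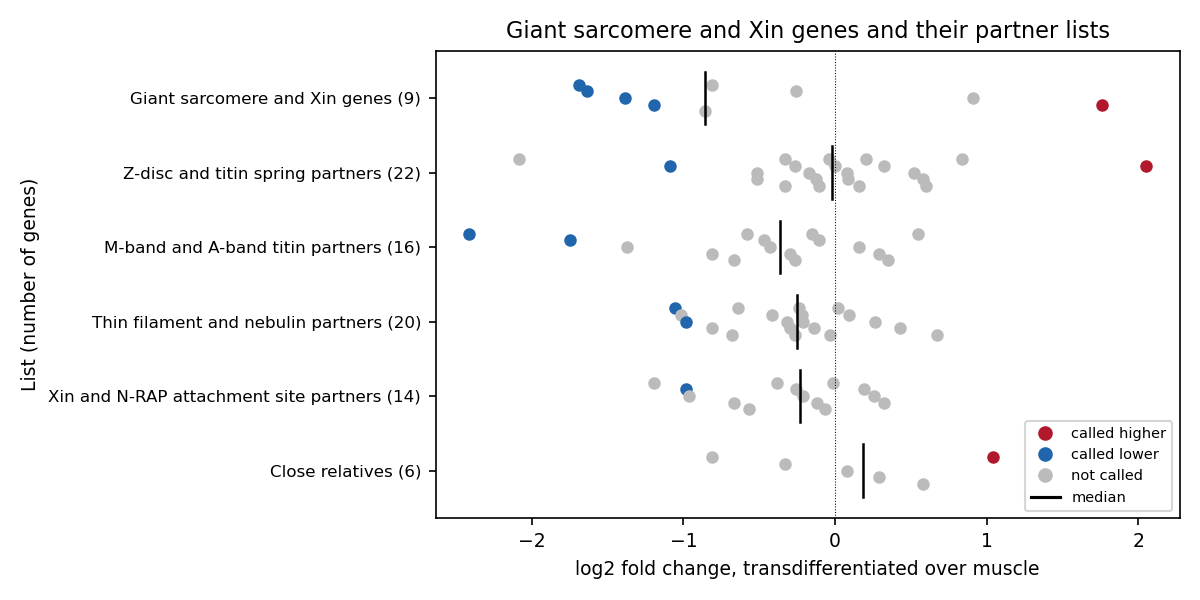
Log2 fold change of transdifferentiated cells over muscle for the 9 genes and the 5 lists of partners and relatives, with 1 point a gene, the call in edgeR's test as colour and the list's median as a bar. The medians are -0.86 for the 9 genes, -0.02 for Z-disc, -0.36 for M-band, -0.25 for thin filament and -0.23 for attachment site partners, and 0.18 for the relatives.

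The genes with the most similar profile were found for each of the 9 as the tested genes with the smallest root mean square difference in centred log2 CPM over the 6 libraries. For Ttn they were Myh1 (0.25), Myh3 (0.25) and Ckm (0.30), 2 myosin heavy chains, whose near-identical copies make their counts uncertain, and muscle creatine kinase. Neb was closest to Ckmt2 (0.16) and Cox8b (0.22), and Mypn to Dhrs7c (0.30), Neb (0.33) and Tcap (0.33). Nrap was closest to Chrnd (0.07) and Chrng (0.32), 2 subunits of the acetylcholine receptor. Obsl1 lay near Reep2 (0.03), Shroom3 (0.17) and Gm41556 (0.17), and Tcap near Hrc (0.20), Padi2 (0.20) and Myf6 (0.22). Xirp1 was closest to Ckm (0.34) and Myh8 (0.38). The closest genes to Xirp2 lay farther off, at 0.50 for Myh2, 0.53 for Mybpc1 and 0.55 for Myoz2; Myh2 had means of 140 CPM in muscle and 378 CPM in transdifferentiated cells. For Nebl, at its few counts, they included 2310026L22Rik (0.38) and Gm36608 (0.39).

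In the authors' deposited table of 2806 genes, 8 of the 9 genes are listed and Nebl is not. The sign of the table's log2 fold change is that of MEF over muscle in all 2645 of its genes that were tested here, and it is negative for the 8. Their sizes in the authors' deposited table run from 3.23 for Obsl1 to 11.07 for Nrap.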

How the data were processed

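RNA of 6 mouse libraries (2 each of MEF, muscle and transdifferentiated cells) was measured by sequencing of poly(A) libraries with single-end reads. The values deposited by the authors are whole read counts for each symbol, not normalized. The submitters' processing notes name build mm10, featureCounts 1.6.2, DESeq2 1.26.0, HISAT2 2.1.0 and Trim Galore 0.6.0, with no roles; the annotation and strand setting are not stated in the sources used here. The authors' table gives log2 fold changes and p-values, per the file headers; its deposited mean signal over libraries was not used.

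Counts were fitted in edgeR 4.0.16 (R 4.3.3): filterByExpr by group (17400 genes), TMM, and 1 robust quasi-likelihood model (legacy dispersion) over all 6 libraries with group as its term, with 3 residual degrees of freedom and a biological coefficient of variation of 27.3%. Each of the 3 comparisons was Benjamini-Hochberg adjusted over all genes tested. Values are TMM-scaled CPM, and SE is the log2 fold change over the square root of F. The script was tested on simulated data. Replicates of a group differed by more than sampling noise (chi-square per degree of freedom 41.1 to 73.9). Lengths and positions are from GENCODE M21 on mm10.

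The genes and lists were chosen with earlier results of these data known. Named are the 9 genes, 6 relatives, in each list and comparison the gene with the smallest adjusted p and any called against the list's majority, and the 3 nearest profiles; Mybpc2 and Tnni1 were named after their values were seen. Of the genes this rule names, 3 are not reported here. Alternatives were DESeq2 1.42.0 (test and size factors), library totals, no count filter, 10 CPM in 2 libraries, only the groups compared, another dispersion, a replicate block, longest transcripts as lengths, and each library left out.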

Additional observations from a re-analysis of the deposited data

How the results depend on the processing

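Of the log2 fold changes of the 9 genes under the alternatives, 123 in muscle against MEF, 124 in transdifferentiated cells against MEF and 103 in transdifferentiated cells against muscle kept their sign and side of the threshold; in the last comparison 16 lost and 5 gained a call, and in the second 1 gained one. The sign turned for Nebl in muscle against MEF without Muscle replicate 1 (-0.29; -0.29 to 6.13 over the libraries left out) and for Xirp1 in transdifferentiated cells against muscle without transdifferentiated replicate 1 (0.22; -0.98 to 0.22); the cause was not tested. With longest transcripts as lengths, Nebl per kilobase went from 0.0284 to 0.0535 in muscle and from 0.0560 to 0.106 in transdifferentiated cells. Scaling moved the median of all genes by 0.084 at most. In transdifferentiated cells against muscle, the 8 partner genes called became 5 with library totals alone, 13 with no count filter, 4 at 10 CPM in 2 libraries and 14 with only these 2 groups. At 10 CPM in 2 libraries, which tests fewer genes, 3 of the 9 genes and 764 of all genes were called there, and 4008 of all genes in muscle against MEF. Leaving out each library in turn gave 8 of the 9 genes called in muscle against MEF, 8 to 9 in transdifferentiated cells against MEF and 0 to 6 in transdifferentiated cells against muscle. The partner genes called ranged over 53 to 60, 56 to 57 and 2 to 14, and all genes called over 3758 to 6637, 3564 to 4320 and 729 to 2221. Where a group is left with 1 library, that library is assumed to vary like the other groups.

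The replicate numbers are not stated to pair libraries, and same-numbered libraries did not deviate together in each pair of groups (r of 0.314 for MEF and muscle, -0.529 for MEF and transdifferentiated, -0.291 for muscle and transdifferentiated, across genes). With the replicate number as a block, 8, 8 and 3 of the 9 genes were called in the 3 comparisons, with Nrap (adjusted p = 0.0692) and Tcap (0.0616) not called in the last, and 4 partner genes were called there.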
